A study of Mus musculus with 21 samples.

Results

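Stenotic aortic valves were compared with healthy aortic valves from Notch1-heterozygous mice that had all received XCT790. The comparison rests on 8 of the 21 libraries of the study, 3 from stenotic and 5 from healthy valves, and the libraries were chosen by their titles. It asks which genes differ between a diseased and a healthy valve when the drug is present in both. RNA came from valves that were lysed directly, so each library mixes all cells of the valve and of any tissue left attached to it.

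All 8 libraries came from mice labelled N1+/- (1 intact copy of Notch1) and Terc-/- of generation 2, which lack the RNA template of telomerase. The Terc deletion is therefore shared by the healthy and the stenotic mice. XCT790, an inverse agonist of the nuclear receptor ERRα that is encoded by Esrra, was injected into the peritoneum daily at 5 mg/kg/day for 4 weeks, starting at 4 weeks of age. The solvent-treated valves set beside them, 3 stenotic and 6 healthy, carried the same genotype and received the solvent over the same weeks. The labels do not say whether each library is a separate animal or a pool, so every p below measures the spread between these samples, which may be technical.

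The aortic valve is a thin leaflet of interstitial cells, which resemble fibroblasts, embedded in collagen, proteoglycan and elastin and covered by endothelium. NOTCH1 signalling in the endothelium restrains osteogenic and inflammatory gene programs, and loss of 1 copy of NOTCH1 is a known cause of calcific aortic valve disease, in which the leaflet thickens and its opening narrows. ERRα drives genes of mitochondrial energy metabolism.

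The 8 libraries held 9.78 to 24.82 megareads (M reads), as recovered from the deposited FPKM, the fragment count per gene length and library size. Healthy libraries 1 and 2 and stenotic library 2 were among 6 of the study's libraries above 17 M reads and had 0.0581%, 0.521% and 0.335% of their reads on mitochondrially encoded genes, against 1.58% to 4.03% in the other 5. In a further label field, the agent, healthy libraries 1, 2 and 3 carry the solvent, against their titles, and the solvent-treated stenotic libraries carry XCT790. Titles were followed. By the agent field the healthy XCT790 group would keep libraries 4 and 5 only, and no stenotic library would be a solvent library. For 19 gene lists and the mitochondrially encoded genes, the median was also taken over 24 alternatives, which include that field and each of the 8 libraries left out. It is given as a range over alternatives or as values under single ones. The medians of the other lists, among them class II, cell cycle and telomere genes, were not followed over the alternatives.

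Cell type markers showed that some libraries stood apart. The 19 fibroblast and interstitial markers summed to 10830 to 13140 FPKM in the healthy and to 8192, 9406 and 8338 FPKM in the stenotic libraries 1, 2 and 3. These were the highest sums of any marker list in the healthy libraries. The sums weigh abundant genes most. As the mean log2(FPKM + 1) of the 19 markers, stenotic library 1 lay at 7.41, inside the healthy range of 6.95 to 7.675. Stenotic libraries 2 and 3 lay below that range, at 6.62 and 6.39. Stenotic library 1 held 1071 FPKM of mesothelial and epithelial markers, among them Upk3b at 459, Msln at 120 and Krt19 at 103, against 2.36 to 31.5 FPKM in the healthy libraries and 0.848 and 4.77 FPKM in stenotic libraries 2 and 3. Heart muscle markers were high in stenotic library 1 and healthy library 5, at 2740 and 2603 FPKM, against 176 to 681 in the other 6. Smooth muscle markers were high in stenotic library 1 and healthy library 2, at 2195 and 1903 FPKM, against 155 to 725 in the other 6. Erythrocyte markers ran from 2.56 to 590 FPKM in healthy libraries and stood at 1110, 19.3 and 14.7 FPKM in stenotic libraries 1, 2 and 3. Macrophage and monocyte markers reached 10870 FPKM in stenotic library 3, and mast cell markers 570 FPKM in healthy library 4 and 111 in healthy library 3 against at most 7.89 elsewhere. In bulk tissue, fewer cells of a type and less RNA per cell cannot be told apart.

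**Figure D1:**
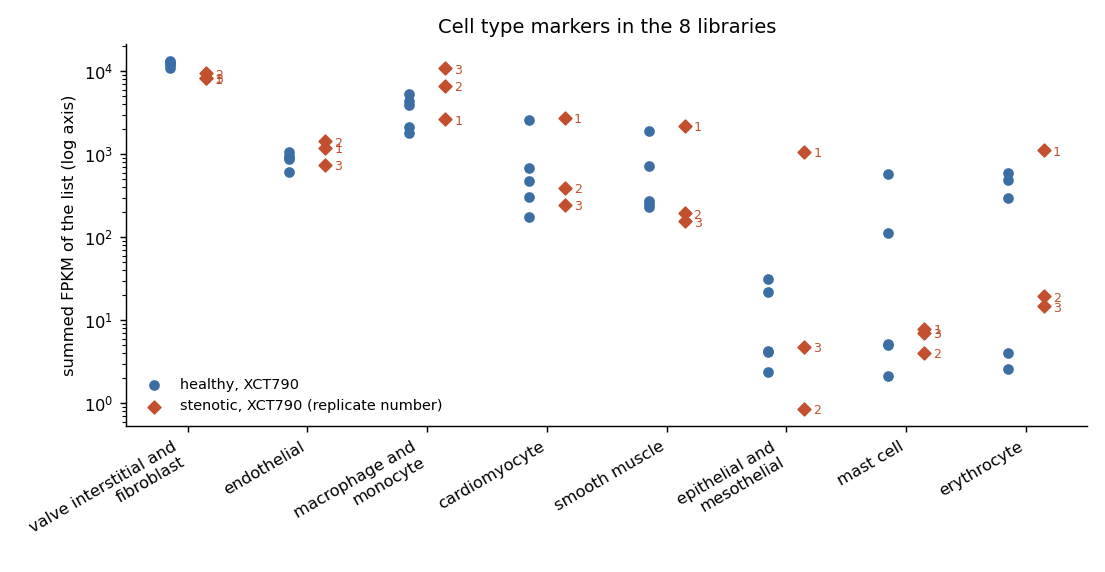
Summed FPKM of cell type marker lists (log axis) in the 5 healthy (circles) and 3 stenotic (diamonds, numbered by replicate) libraries after XCT790. Stenotic library 1 lies at 1071 FPKM for mesothelial and epithelial markers, and stenotic library 3 at 10870 FPKM for macrophage markers. All 3 stenotic libraries lie below all 5 healthy ones for the summed fibroblast markers, though not for their mean log2 level.

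No gene passed the threshold. Of 14966 genes tested with limma on log2(FPKM + 1), 0 (0%) had a Benjamini-Hochberg adjusted p under 0.05, and 760 (5.08%) had an unadjusted p under 0.05, 396 (2.65%) higher and 364 (2.43%) lower in stenosis. Below that unadjusted level, limma's voom on recovered reads had 862 genes and called 0, voom with sample quality weights had 1082 and called 8, and array weights in limma had 1084 and called 1. All 3 stenotic libraries lay above all 5 healthy ones for 309 genes (2.06%) and below them for 294 (1.96%). The median half-width of the 95% interval was 1.02 on the log2 scale, and for 3540 genes (23.7%) the whole interval lay between -1 and 1. For the other genes the interval reached past a 2-fold difference on at least 1 side. Every difference below is stenotic minus healthy on the log2(FPKM + 1) scale with its standard error, which understates the difference of low genes, and none was called in that test.

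The genes that the design acts on came first. Notch1 stood at 33.7, 35.9, 29.3, 19.4 and 43.6 FPKM in healthy libraries 1 to 5 and at 24.1, 35.6 and 20.9 FPKM in stenotic libraries 1 to 3. The groups overlapped, with a difference of -0.25 ± 0.28 (adjusted p = 0.986). Esrra, which encodes the drug's target, was low in all 8 libraries, at 1.19 to 2.89 FPKM in healthy and 1.64 to 2.1 FPKM in stenotic valves, with a difference of 0.07 ± 0.38 (adjusted p = 1). By their titles both groups received XCT790, so this contrast of a low transcript is no check of the treatment, and Terc was not analysed here.

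The 10 lower and 10 higher genes named first had the smallest p among genes with every library beyond the other group's median. Separation of the groups is thus partly built into their choice. The lower ones were led by Ptn, which encodes pleiotrophin, a secreted heparin-binding growth factor. Ptn stood at 227, 169, 158, 122 and 138 FPKM in the healthy and 90.2, 42.8 and 49.4 FPKM in the stenotic libraries. All stenotic values lay below all healthy ones, with a difference of -1.45 ± 0.29 (adjusted p = 0.346). Socs2, a suppressor of cytokine and growth hormone signalling, stood at 20.9 to 36.8 FPKM in healthy valves and at 11.3, 10.7 and 13.4 FPKM in stenotic ones (-1.12 ± 0.24). Mmp19, a matrix metalloproteinase, stood at 13.7 to 24.1 against 5.34, 2.53 and 3.52 FPKM (-2.03 ± 0.44). Apcdd1, a membrane-bound Wnt inhibitor, stood at 34.8 to 81.9 against 12.6, 25.4 and 11.2 FPKM (-1.82 ± 0.39).

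The same separation of all 3 from all 5 libraries held for Crispld2, Sez6l, Nt5dc2 and Arl8a, with differences of -1.22 ± 0.27, -1.73 ± 0.37, -1.39 ± 0.32 and -1.08 ± 0.25. Arl8a encodes a small GTPase that positions lysosomes. Cntfr, the receptor subunit for ciliary neurotrophic factor, stood at 11.4 to 53.6 FPKM in healthy valves and at 12.2, 0.71 and 1.18 FPKM in stenotic ones (-2.88 ± 0.67). Hlf, a transcription factor of the PAR bZIP family, stood at 15.8 to 51.9 against 20.5, 6.45 and 3.35 FPKM (-1.94 ± 0.45). For Cntfr and Hlf stenotic library 1 lay inside the healthy range. Without stenotic library 1, Ptn, Cntfr and Hlf had an adjusted p of 0.0446 each in limma, among 5 genes called, with differences of -1.77, -3.81 and -2.58.

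Among genes higher in stenosis, Ccl2, the chemokine that draws monocytes, stood at 18.7, 25.6, 34.9, 75.1 and 37.7 FPKM in healthy and 120, 92.7 and 205 FPKM in stenotic libraries. All stenotic values lay above all healthy ones, with a difference of 1.91 ± 0.49 (adjusted p = 0.531). Ifi27l2a, an interferon-inducible gene, stood at 98.3 to 266 against 382, 454 and 1373 FPKM (1.82 ± 0.45). Grk5, a kinase of G protein-coupled receptors, stood at 11.4 to 20.7 against 30.3, 37.6 and 31.3 FPKM (0.95 ± 0.28). Trim68, a ubiquitin ligase, stood at 0.674 to 3.8 against 8.05, 21.9 and 5.48 FPKM (2.04 ± 0.46).

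Some of the higher genes were highest in stenotic library 1, where the mesothelial markers were high. Aldh1a2, which makes retinoic acid and is expressed in mesothelium and epicardium, stood at 0 to 1.85 FPKM in healthy valves and at 68.9, 6.71 and 4.65 FPKM in stenotic libraries 1, 2 and 3 (3.12 ± 0.82). Gpm6a, a membrane glycoprotein, stood at 0.0809 to 1.37 against 105, 3.49 and 8.05 FPKM (3.26 ± 0.74). Gpr126, an adhesion receptor, stood at 0.65 to 3.52 against 13, 4.37 and 5.53 FPKM (1.69 ± 0.48), and its difference was -0.046 with groups by the agent field. For these 3 genes the other stenotic libraries also lay above all 5 healthy ones, and the part of mesothelial RNA in the differences was not tested. Of the rest, Lyz1, a lysozyme of macrophages, stood at 3.77 to 17.1 against 15.7, 59.6 and 222 FPKM (2.75 ± 0.76), and the groups overlapped, as they did for Cndp2 (1.32 ± 0.39) and Thap1 (2.37 ± 0.71).

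**Figure D2:**
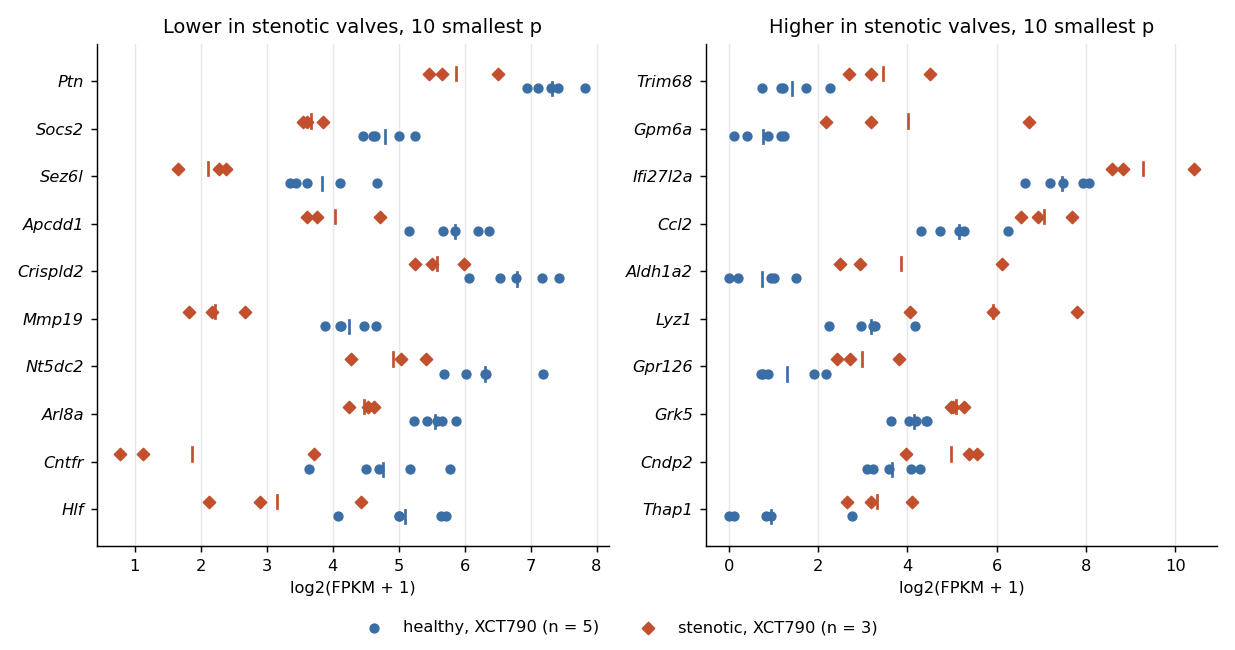
Level of the 10 lower and 10 higher genes with the smallest p in each library, as log2(FPKM + 1), in healthy (circles, n = 5) and stenotic (diamonds, n = 3) valves after XCT790, with short vertical lines at the group means. None of these genes passed the threshold. Ptn, Mmp19 and Ccl2 are examples in which the groups do not overlap. The genes were chosen among those with every library beyond the other group's median, which favours separation.

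Markers of fibroblasts and matrix genes were mostly lower in stenotic valves. Of the 19 fibroblast and interstitial markers tested, 17 were lower and 2 higher, with a median difference of -0.42, beside 6934 of all 14966 genes (46.3%) lower and a median of 0.04. Only 2 of the 19 were lower without overlap of the groups, beside 1.96% of all genes. Dcn, which encodes decorin, the small proteoglycan that binds collagen, stood at 5010, 4358, 4888, 4801 and 4151 FPKM in healthy and 2828, 3503 and 2909 FPKM in stenotic libraries. The groups did not overlap, with a difference of -0.59 ± 0.16 (adjusted p = 0.562). Lum, its relative lumican, stood at 807 to 972 against 472, 715 and 587 FPKM (-0.60 ± 0.19), and Mfap4, a microfibril protein, at 224 to 928 against 338, 118 and 138 FPKM (-1.59 ± 0.40). With voom and sample quality weights, Dcn was called at an adjusted p of 0.0367. Without stenotic library 1 all 19 markers were lower, and without stenotic library 3, 13 of 19 were. The median ranged from -0.65 to -0.38 over alternatives, the lowest without the libraries rich in heart muscle.

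Of 21 genes of proteoglycans and hyaluronan, 15 were lower, 5 of them at an unadjusted p under 0.05 and 4 with no overlap of the groups (median -0.32). Over all genes tested, 2.43% were lower at that p and 1.96% were lower without overlap. The median ranged from -0.53 to -0.12 over alternatives, the highest without healthy library 4. Vcan, which encodes versican, the large proteoglycan of the valve's spongy layer, stood at 137 to 355 FPKM in healthy and 75, 120 and 123 FPKM in stenotic valves (-1.09 ± 0.36). Prelp, a leucine-rich proteoglycan, stood at 1364 to 2948 against 547, 1475 and 1014 FPKM, and stenotic library 2 lay inside the healthy range (-1.09 ± 0.36). Hapln1, which links hyaluronan to proteoglycans but is counted with the cartilage-type genes below, stood at 46.1 to 89 against 30.9, 44.6 and 23.4 FPKM (-0.99 ± 0.40).

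Cartilage-type genes were lower in 14 of 16, 5 at an unadjusted p under 0.05 and 3 without overlap (median -0.69, ranging from -1.02 to -0.42 over alternatives). The shares over all genes were again 2.43% and 1.96%. Cilp, a matrix protein of the cartilage intermediate layer, stood at 10.9 to 33.8 FPKM in healthy and 5.69, 6.11 and 1.06 FPKM in stenotic valves (-2.30 ± 0.57). Prg4, which encodes the lubricant lubricin, was at 323 to 808 against 183, 395 and 210 FPKM and overlapped (-1.11 ± 0.44). Of 19 genes of elastic fibres, 14 were lower (median -0.41, ranging from -0.51 to -0.23 over alternatives), among them the cross-linking enzyme Loxl1 (-0.85 ± 0.35) and Ltbp4, which binds latent TGF-β (-0.63 ± 0.26). The 17 collagens were split more evenly, 11 lower and 6 higher (median -0.20). Without healthy library 4, 8 were lower and 9 higher (median 0.03), and without the libraries rich in heart muscle the median was -0.59. Among the collagens, Col6a3 alone separated the groups at 26 to 52.3 against 14, 17.4 and 17.6 FPKM (-1.15 ± 0.37). Mmp2, the gelatinase of fibroblasts, stood at 179 to 391 against 108, 155 and 146 FPKM (-0.94 ± 0.31).

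Wnt pathway genes were lower in 23 of 31, 7 at an unadjusted p under 0.05 and 6 without overlap (median -0.44). Of all genes, 2.43% and 1.96% were lower by these measures. The median was -0.26 without stenotic library 3, -0.28 with healthy libraries 4 and 5 alone and -0.69 among genes of higher level. Dkk3, a secreted member of the Dickkopf family, stood at 1079, 855, 699, 622 and 626 FPKM in healthy and 204, 432 and 444 FPKM in stenotic libraries. This was a difference of -1.16 ± 0.28 (adjusted p = 0.468), and 0.0367 with voom and sample quality weights. Rspo3, which strengthens Wnt signalling at its receptors, stood at 41 to 97.2 against 26.2, 30.3 and 17.8 FPKM (-1.20 ± 0.34), and the receptor Lrp5 at 30.3 to 67.6 against 16.9, 33.7 and 29.5 FPKM (-0.85 ± 0.29). Genes that raise and genes that restrain the pathway were thus lower side by side.

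Of 9 mural cell markers, 7 were lower (median -0.74). The median was -0.46 without stenotic library 3, -0.41 among the libraries of lower depth and -0.45 with healthy libraries 4 and 5 alone, with 7 of 9 lower each time. Abcc9, a potassium channel subunit of pericytes, stood at 42.2 to 85 against 30.5, 23.4 and 34.8 FPKM (-1.07 ± 0.29), and Rgs5, a regulator of G protein signalling in pericytes, at 145 to 273 against 109, 105 and 142 FPKM (-0.76 ± 0.25). The groups did not overlap for either gene. They overlapped for the markers Cox4i2, at 15.5 to 71.8 against 17.7, 112 and 53.5 FPKM, and Ndufa4l2, at 0.7 to 7.94 against 23.3, 7.11 and 6.11 FPKM. The mean log2(FPKM + 1) of the list overlapped as well, at 4.22 to 5.09 in healthy libraries and 4.38, 4.19 and 3.88 in stenotic libraries 1, 2 and 3.

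Genes of calcification and of valve development differed in both directions. Of 17 osteogenic and mineralization genes, 8 were higher and 9 lower (median -0.17), and 0 had an unadjusted p under 0.05. Spp1, which encodes osteopontin, a protein of bone matrix and of macrophages, stood at 2.08 to 17.7 FPKM in healthy valves and at 6.24, 38.7 and 42.3 FPKM in stenotic libraries 1, 2 and 3 (1.64 ± 0.88), in the order of their macrophage marker sums. The part of macrophage RNA in this difference was not tested. With healthy libraries 4 and 5 alone, whose titles and agent field match, the osteogenic median was 0.27, and it ranged from -0.50 to 0.27 over alternatives. Of 25 valve developmental regulators, 16 were lower (median -0.20). At an unadjusted p under 0.05 were 3 in each direction, beside 2.65% higher and 2.43% lower over all genes. The median was 0.03 without stenotic library 3 and -0.48 without stenotic library 2, with 12 and 17 of 25 lower. Tbx20, a cardiac T-box factor, stood at 283 to 431 against 135, 314 and 217 FPKM (-0.82 ± 0.29), and Twist2, a mesenchymal factor, at 6.25 to 18.2 against 8.42, 0.85 and 0.0769 FPKM (-2.03 ± 0.73). Bmp5, a growth factor, stood at 4.97 to 11.6 against 1.65, 1.08 and 2.62 FPKM without overlap (-1.80 ± 0.60).

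Notch pathway genes showed both signs. Of 8 receptors and ligands, 4 were higher and 4 lower (median -0.11), and of 18 effectors and modifiers, 10 were higher and 8 lower (median 0.07). Over alternatives these medians ranged from -0.35 to 0.15 and from -0.12 to 0.08. Dll1, a ligand, stood at 1.53 to 6.09 FPKM in healthy and 14.6, 11.8 and 6.5 FPKM in stenotic valves (1.25 ± 0.51). Lfng, the glycosyltransferase that tunes the receptor's response to ligands, stood at 0.706 to 7.86 against 11.8, 12.2 and 7.35 FPKM (1.68 ± 0.67). The transcriptional targets Hes1 and Heyl were lower, Hes1 at 35.7 to 60.4 against 38, 23.9 and 13.3 FPKM (-0.90 ± 0.35) and Heyl at 16.6 to 55.9 against 24.3, 7.29 and 13.9 FPKM (-1.15 ± 0.53).

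Endothelial markers were higher in 19 of 20 (median 0.48, beside 53.4% of all genes higher). Sox17, an arterial endothelial transcription factor counted with the valve developmental regulators, stood at 0.809 to 1.35 FPKM in healthy and 2.24, 6.27 and 6.71 FPKM in stenotic valves (1.45 ± 0.58). The marker Emcn, the endothelial sialomucin endomucin, stood at 9.81 to 19.8 against 36.7, 25.2 and 27.2 FPKM (0.99 ± 0.51). Sox18 stood at 6.32 to 24.4 against 66.3, 36.8 and 15.9 FPKM (1.26 ± 0.53), Robo4, an endothelial guidance receptor, at 2.62 to 5.54 against 16.1, 3.81 and 11.6 FPKM (1.13 ± 0.49), and Vwf, the clotting factor of endothelium, at 1.33 to 10.2 against 51.5, 9.57 and 13.6 FPKM (1.44 ± 0.60). The highest Sox18, Robo4 and Vwf values were those of stenotic library 1. The groups overlapped for the more abundant markers Pecam1 (53.2 to 157 against 120, 194 and 93.2 FPKM) and Eng (123 to 217 against 162, 255 and 161 FPKM). The marker Ramp2 went the other way, at 62.9 to 152 against 69.6, 98.8 and 58.2 FPKM. The list's median was 1.01 without stenotic library 3, 0.20 without stenotic library 2, with 12 of 20 higher, and 0.03 among the libraries of lower depth, with 11 of 20 higher.

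Chemokine, macrophage, interferon and class I genes were mostly higher in stenosis, and stenotic library 3 had many of the highest values. Of 21 chemokines, 16 were higher, 4 at an unadjusted p under 0.05 and 3 without overlap (median 0.84). Among all genes these shares were 2.65% and 2.06%. Ccl12, a monocyte chemokine like Ccl2, stood at 41.5 to 190 against 193, 235 and 451 FPKM (1.54 ± 0.58), and Ccl7 at 13.9 to 98.3 against 82.2, 75.1 and 144 FPKM (1.35 ± 0.57). The median was 0.33 without stenotic library 3, with 13 of 21 higher, and 0.23 with healthy libraries 4 and 5 alone, with 12 of 21 higher.

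Of 25 macrophage and monocyte markers, 22 were higher (median 0.38). Lyz2, the myeloid lysozyme, stood at 453, 633, 1213, 1471 and 1424 FPKM in healthy and 1017, 2801 and 4585 FPKM in stenotic libraries (1.33 ± 0.46). C1qb, a complement subunit made by macrophages, stood at 272 to 722 against 303, 716 and 1021 FPKM (0.40 ± 0.40). The 2 deep healthy libraries held the lowest Lyz2 and C1qb values of the healthy group. The list's median was 0.01 without stenotic library 3, 1.06 without both libraries rich in heart muscle, 0.00 among libraries of lower depth and -0.14 with healthy libraries 4 and 5 alone. Csf3r, the granulocyte colony-stimulating factor receptor, separated the groups at 0.383 to 1.48 against 1.75, 20.4 and 3.29 FPKM (1.80 ± 0.58), while the neutrophil markers Retnlg and Cxcr2 were listed at 0 in all 8 libraries. Stenotic library 2 also had the highest S100a9, Ngp and Camp, at 1.51, 1.02 and 0.56 FPKM, whereas S100a8 was highest in healthy libraries 1 and 5, at 6.14 and 6.05 FPKM.

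All 30 interferon-stimulated genes were higher in stenosis by their group means, yet 2 had an unadjusted p under 0.05 and 1 separated the groups (median 0.64). Among all genes 2.65% and 2.06% were higher by these measures. With array weights 23 were higher (median 0.28), and with voom and sample quality weights 19 were (median 0.31). The high levels were those of 1 library. Relative to the mean of the healthy libraries, the median of the 30 genes was 2.22 in stenotic library 3 and -0.05 and -0.09 in stenotic libraries 1 and 2, and it ranged from -0.44 to 0.70 in the healthy ones. Without stenotic library 3, 14 genes were higher and 16 lower (median -0.16). H2-K1, a class I histocompatibility gene, stood at 110 to 268 FPKM in healthy and 212, 327 and 398 FPKM in stenotic valves (0.77 ± 0.27), and 11 of 15 class I presentation genes were higher (median 0.34). With healthy libraries 4 and 5 alone 9 of 15 were (median 0.09), and without the libraries rich in heart muscle 13 of 15 were (median 0.68).

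Promoter sequences of 4 interferon-stimulated genes are shown because these members had their highest value in stenotic library 3. The interferon-stimulated response element was searched as TTTC, any 2 bases and TTTC again on both strands, overlapping matches included, in RefSeq windows of 300 bases (GRCm38.p6), 250 before and 50 after the start. It occurred in 13 of the 22 list members with a window (59.1%), in 322 of 8709 tested genes (3.7%) and in 1079 of 27025 windows in all (3.99%). Each line reads 5′ to 3′ along the gene's own strand, and capitals mark 1 match. The stretches are chr4:156200861-156200922 (minus strand) for Isg15, chr19:34640778-34640839 (plus) for Ifit1, chr3:142620578-142620639 (plus) for Gbp2 and chr12:26456537-26456598 (minus) for Rsad2, all upstream of the start.
Isg15: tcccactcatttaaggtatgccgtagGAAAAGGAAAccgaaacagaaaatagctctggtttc
Ifit1: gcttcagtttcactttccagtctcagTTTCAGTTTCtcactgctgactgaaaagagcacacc
Gbp2: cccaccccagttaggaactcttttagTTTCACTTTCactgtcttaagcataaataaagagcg
Rsad2: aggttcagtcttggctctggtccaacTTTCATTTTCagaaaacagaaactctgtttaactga

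Isg15, a ubiquitin-like protein, stood at 7.57 to 47.6 FPKM in healthy valves and at 16.8, 10.8 and 99.8 FPKM in stenotic libraries 1, 2 and 3 (0.52 ± 0.71). Ifit1, which binds foreign RNA, stood at 0.573 to 42.1 against 7.53, 6.63 and 104 FPKM (0.95 ± 1.04), and Rsad2, which encodes the antiviral enzyme viperin, at 0 to 4.16 against 1.69, 0.0391 and 38.5 FPKM (1.16 ± 0.94). Gbp2, a guanylate-binding protein, differed from these in being high in 2 stenotic libraries, at 33.4, 12.2 and 38.9 FPKM against 8.55 to 29.4 in healthy valves (0.71 ± 0.40). For Isg15, Ifit1 and Rsad2, stenotic libraries 1 and 2 lay inside the healthy range.

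**Figure D3:**
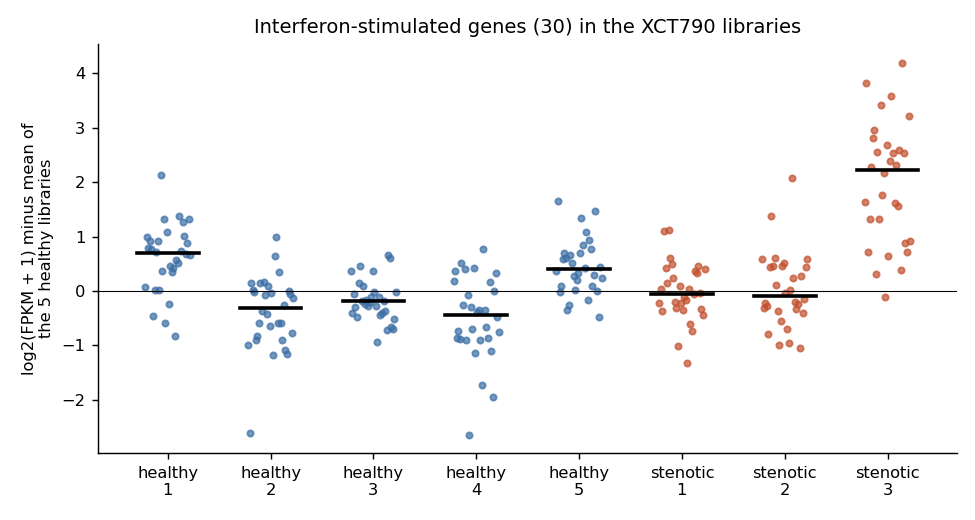
Levels of the 30 interferon-stimulated genes in the 8 libraries after XCT790, as log2(FPKM + 1) minus the mean of the 5 healthy libraries; each point is a gene and the bars are medians. Stenotic library 3 has a median of 2.22, and stenotic libraries 1 and 2 have medians of -0.05 and -0.09, inside the healthy range.

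Nuclear-encoded genes of mitochondrial metabolism, the known program of the drug's target, differed by small amounts. The 6 mitochondrially encoded genes were all higher (median 0.89), but with healthy libraries 4 and 5 alone all 6 were lower (median -0.93). Without healthy library 1, 3 were higher and 3 lower (median -0.14). Of 46 subunits of oxidative phosphorylation, 40 were higher, 2 at an unadjusted p under 0.05 (median 0.24), beside 2.65% of all genes. Ndufs8, a subunit of complex I, stood at 51.5 to 87.6 FPKM in healthy and 119, 112 and 211 FPKM in stenotic valves (1.04 ± 0.35), and Ndufa2 at 106 to 182 against 179, 229 and 195 FPKM (0.59 ± 0.24). Of 32 genes of fatty acid oxidation and the TCA cycle, 19 were higher and 13 lower (median 0.09), and with healthy libraries 4 and 5 alone 13 were higher and 19 lower (median -0.06). Without stenotic library 1, 12 were higher and 20 lower (median -0.07). Cytosolic ribosomal proteins were higher in 34 of 36 (median 0.28), 5 at an unadjusted p under 0.05, beside 2.65% of all genes. Among them Rpl38 stood at 272 to 497 against 586, 466 and 665 FPKM (0.62 ± 0.21). By the agent field 25 of 36 were higher (median 0.15), and without stenotic library 3 34 of 36 were (median 0.17). The oxidative phosphorylation median was 0.08 with healthy libraries 4 and 5 alone, with 27 of 46 higher.

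The ERR response element, searched as TNAAGGTCA on both strands in the same windows, occurred in 2 of 34 oxidative phosphorylation members (5.88%), in 0 of 26 of fatty acid oxidation and the TCA cycle and in 0 of 12 ERR and PGC-1 regulators. It occurred in 80 of 8709 tested genes (0.919%) and in 387 of 27025 windows (1.43%). The match of Atp5g3, a subunit of the ATP synthase, is shown because this list is the drug target's known program. It lies on the opposite strand to the gene, at chr2:73911344-73911404 (GRCm38.p6, gene on the minus strand), and capitals mark the match.
Atp5g3: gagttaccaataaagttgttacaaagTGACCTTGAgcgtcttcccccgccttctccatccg
Atp5g3 stood at 31.4 to 66.7 FPKM in healthy and 91.3, 52.6 and 71.4 FPKM in stenotic valves, with overlap (0.44 ± 0.42).

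The same contrast under solvent uses no library of the XCT790 contrast, although both draw on 1 estimate of the spread. It follows the titles: by the agent field the stenotic libraries here called solvent carry XCT790, and no solvent comparison would exist. Under solvent 5 genes were called in limma (0.0334% of those tested), and 1437 (9.6%) had an unadjusted p under 0.05. Coch, a matrix protein named after the cochlea, stood at 29.5 to 111 FPKM in healthy and 9.7, 1.98 and 0.807 FPKM in stenotic valves under solvent, and at 90, 77.6, 57.6, 95.4 and 29.7 against 29.2, 26.3 and 9.99 FPKM under XCT790. Its stenotic values lay below all healthy ones under both agents, with differences of -3.98 ± 0.50 and -1.66 ± 0.52. Nppb, which encodes B-type natriuretic peptide, a hormone of stretched heart tissue, stood at 0 to 2.2 against 11.2, 38.7 and 30.5 FPKM under solvent and at 0 to 1.22 against 0, 34.6 and 2.88 FPKM under XCT790 (4.11 ± 0.73 and 1.91 ± 0.76).

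Under XCT790 healthy and stenotic valves overlapped for Nppb and for the other 3. Rara, the retinoic acid receptor α, stood at 21.4 to 29.9 against 7.84, 8.79 and 7.98 FPKM under solvent and at 13.1 to 31.4 against 25.9, 20.1 and 20.8 FPKM under XCT790 (-1.49 ± 0.24 and 0.03 ± 0.25). Shisa2, which restrains Wnt and FGF receptors, stood at 8.53 to 23.8 against 0.594, 1.19 and 2.51 FPKM under solvent and at 7.83 to 16.5 against 5.01, 11.6 and 10.1 FPKM under XCT790 (-2.91 ± 0.40 and -0.44 ± 0.41). Isg20l2, a nuclease of ribosomal RNA processing, stood at 10.2 to 19.9 against 4, 2.11 and 2.02 FPKM under solvent and at 3.81 to 8.1 against 8.78, 6.62 and 4.45 FPKM under XCT790 (-2.16 ± 0.36 and 0.09 ± 0.37). Its healthy values were thus lower under XCT790 than under solvent. With each of the 9 solvent libraries left out in turn, Coch and Shisa2 were called 9 times, Rara and Isg20l2 5 times each and Nppb 2 times. Leaving out any 1 stenotic solvent library ended the call of Rara (adjusted p up to 0.201).

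The difference of the stenosis effects between the agents was called for 0 of 14966 genes (0%) in limma, where 446 (2.98%) were under 0.05 before adjustment, and for 0 by voom with or without sample quality weights. For Rara, Isg20l2 and Shisa2 the unadjusted p of this difference was 2.4e-04, 2.9e-04 and 3.3e-04 (adjusted p = 0.97 each), but the solvent values that chose the genes enter it. Arl8a and Mmp19, which were named for their small p under XCT790, were at -0.06 ± 0.24 and -0.35 ± 0.43 under solvent. The XCT790 values that chose them enter the difference between the agents in the same way, and its adjusted p was 1 for both.

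The authors' deposited table marks 262 genes as changed between stenotic and healthy valves under solvent. Of 59 of them that were tested and higher under solvent, 52 (88.1%) were also higher under XCT790, and the median difference was 1.68 under solvent and 0.50 under XCT790. Of 158 that were lower under solvent, 127 (80.4%) were lower under XCT790, with medians of -1.35 and -0.52. Over all genes, 64.2% of those higher and 55.8% of those lower under solvent had the same sign under XCT790. Of the marked genes, 4 higher and 29 lower ones separated the groups in the same direction under XCT790, beside 202 of 7011 and 236 of 7896 over all genes higher and lower under solvent. The genes were marked for their difference under solvent, so a smaller median under XCT790 is no measure of a drug effect.

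**Figure D4:**
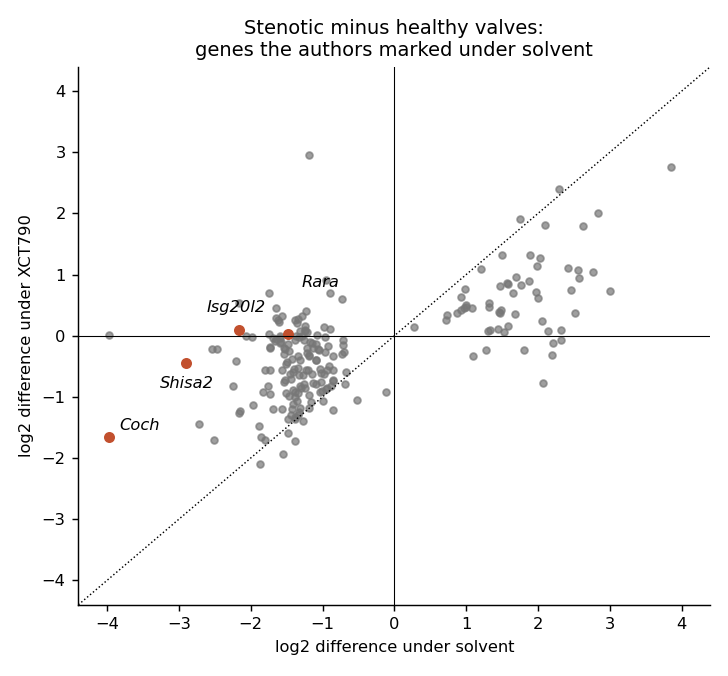
Log2 difference, stenotic minus healthy, under XCT790 (vertical) against that under solvent (horizontal) for the 217 tested genes that the authors' deposited table marks under solvent, with a dotted line of equality. Most points share their sign and lie nearer 0 under XCT790, and Rara and Isg20l2 lie at 0.03 and 0.09 under XCT790.

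The gene lists were ordered alike in several respects under both agents. The fibroblast median was -0.42 under XCT790 and -0.64 under solvent, the Wnt medians were -0.44 and -0.47, and the mural cell medians were both -0.74. Macrophage markers had a median of 0.38 under XCT790 and 1.35 under solvent, where all 25 were higher. The median of 8 class II presentation genes was -0.18 under XCT790 and 0.90 under solvent, and that of 26 cell cycle genes 0.07 and 0.74. Of the cell cycle genes, 15 were higher and 11 lower under XCT790, and 21 and 5 under solvent. Tpx2, a spindle protein, stood at 1.12 to 4.94 FPKM in healthy and 0.484, 1.18 and 2.44 FPKM in stenotic valves after XCT790 (-0.78 ± 0.49), and its difference was 2.06 ± 0.47 under solvent. Tpx2 is among the genes the authors marked under solvent. Other members differed: Aurkb was at 1.09 ± 0.55 under XCT790 and 1.11 ± 0.53 under solvent, and Birc5 at 1.05 ± 0.60 and -0.21 ± 0.58. For 0 genes of these lists was the difference between the agents called.

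**Figure D5:**
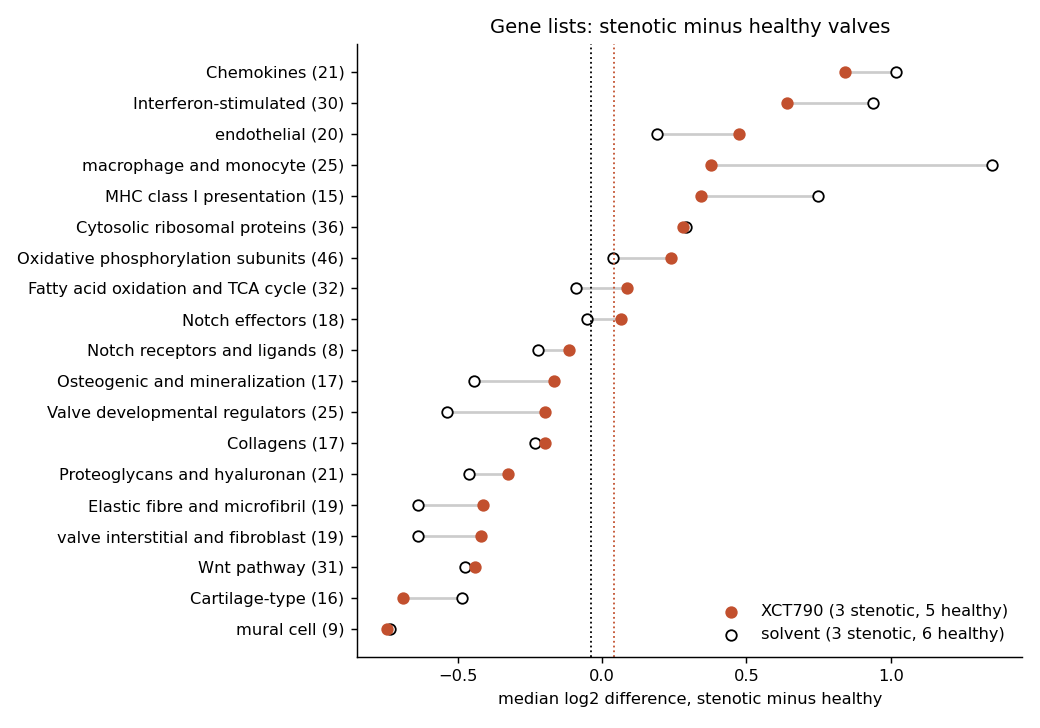
Median log2 difference, stenotic minus healthy, of the gene lists under XCT790 (filled) and solvent (open), with the number of tested genes in brackets and dotted lines at the medians of all genes, 0.04 and -0.04. Fibroblast, Wnt and mural cell lists lie below 0 and chemokine and interferon lists above 0 under both agents.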

How the data were processed

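The labels' protocols state that mouse aortic valves were lysed directly, that RNA was isolated with a Qiagen RNeasy Micro kit and that NUGEN Ovation V2 chemistry made the libraries. FastQC, HISAT2, SAMtools, Picard and the build mm9 are named in the submitters' processing notes. The counting program, annotation and strand (not given in the sources used here) are unknown, and overlapping or near-identical genes may share reads. The authors deposited FPKM for 20872 genes and marks of 0 or 1 for changed genes, by a test likewise not given.

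Whole reads were recovered from the FPKM steps (100% of nonzero values whole within 0.1 reads), and served for depth and voom. Reads of amplified cDNA that carry no molecular identifier can be copies of 1 molecule.

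Genes averaging 1 FPKM or more (14966) entered limma 3.58.1 (R 4.3.3; trend, robust) as log2(FPKM + 1), with 5 group means over all 21 libraries. P-values were adjusted by Benjamini and Hochberg within each contrast, and genes under 0.05 were called. Tests were checked on simulated data.

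The comparison, the named genes and the 51 gene lists were chosen with earlier results of these data known. Named are the targeted genes, 10 genes of smallest p in each direction (mean of 2 FPKM or more, descriptive symbol, every library beyond the other group's median), up to 4 genes of smallest p per list, and the highest genes of marker lists. The 5 genes shown with promoters fall outside that rule and were chosen after their values were seen. Of 946 listed names, 43 had no row. Gene functions are general background. The 24 alternatives changed the pseudocount, filter, threshold, scaling, weights, covariates, groups or libraries.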

Additional observations from a re-analysis of the deposited data

Results flagged for a closer look

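Among the values of the named genes and list levels in the 5 healthy libraries, 1 sample was far from the others. Vwf, the clotting factor of endothelium, had a level of 1.22 as log2(FPKM + 1) in healthy library 4, the next lowest was 2.89, and the gap was 0.738 of the group's range. Of 112 such groups of values, chance alone flags about 1 in 20. The groups of 3 were not tested in this way.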

How the results depend on the processing

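Of 2100 gene values under 24 alternatives, 2066 kept their direction and their side of the threshold, 10 passed the threshold, and 24 turned. An adjusted p under 0.1 and a fit on only the compared groups leave the differences unchanged, so no direction could turn there. Genes called under XCT790 numbered 0 except 1 without a filter (1196 at an unadjusted p under 0.05), 1 with array weights, 1 with depth as covariate (Apcdd1, adjusted p = 0.0034), 8 with voom and sample quality weights, and 0 to 5 when each of the 8 XCT790 libraries was left out in turn. Under solvent the 5 calls became 8 at an adjusted p under 0.1, 14 with only the compared groups, 0 with voom, 26 with voom and sample quality weights, 16 with array weights, 0 outside the deep libraries, 10 with heart muscle as covariate, 0 without the libraries rich in it, and 2 to 11 with 1 library left out, the 9 solvent libraries included, which was added after seeing the data. The difference between agents gave 0 to 2 calls with 1 library left out. With the replicate block, 0 genes were called under XCT790 and 19 under solvent. Deviations of same-numbered libraries correlated at -0.06, 0.05 and 0.08, so little deviation was shared between them. Whether the numbers pair the samples cannot be decided from these values, because each group holds few libraries that also differ in tissue content and depth.

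The cause of the turns was not tested. Rara turned to -0.061 with voom, -0.021 with its quality weights, -0.25 without libraries rich in heart muscle, -0.087 with the replicate block and -0.41 by the agent field, and Isg20l2 to -0.25, -0.048 and -0.28 in the last 3. Esrra was -0.081 with libraries whose agent field matches and -0.21 by the agent field, C1qb -0.14 outside the deep libraries and -0.11 where the field matches, Gpr126 -0.046 by the agent field, and Ifit1 -0.15 with quality weights. With 1 library left out, Rara ranged from -0.15 to 0.15, Isg20l2 from -0.12 to 0.31, Esrra from -0.013 to 0.19, Isg15 from -0.41 to 1.14, Ifit1 from -0.28 to 1.61 and Rsad2 from -0.36 to 2.26. By the agent field no stenotic solvent group exists, so neither the solvent contrast nor the difference between agents can be formed. Libraries of 9.78 to 24.82 M reads measure low genes such as Esrra with few reads, and 3 stenotic libraries limit every comparison.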

Other observations

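Telomerase and stress genes were read apart from the valve lists. Nhp2 and Gar1, which encode proteins of the box H/ACA particle that telomerase RNA also joins, separated the groups in mice without Terc. Nhp2 stood at 4.29 to 18.1 FPKM in healthy and 24.6, 22 and 23.3 FPKM in stenotic valves (1.19 ± 0.46, adjusted p = 0.923 in limma), and Gar1 at 5.85 to 11 against 15.2, 14.5 and 19.1 FPKM (0.95 ± 0.39, adjusted p = 0.923). Under solvent their differences were -0.43 ± 0.44 and -0.74 ± 0.37, and the difference between the agents had an adjusted p of 1 for both. Of 16 telomere and telomerase genes, 7 were higher and 9 lower (median -0.06). Herpud1, a gene of the unfolded protein response, stood at 58.3 to 90.9 against 43.6, 41 and 20.3 FPKM (-1.03 ± 0.32), and Sesn1, a p53 target, at 29.3 to 39.7 against 24.8, 19.5 and 16.8 FPKM (-0.71 ± 0.30). Their lists did not lean that way. Of 23 genes of the unfolded protein response and ATF4, 13 were higher and 10 lower (median 0.14). Of 25 p53 and senescence genes, 15 were higher and 10 lower (median 0.12).

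Growth and signalling genes outside the main lists gave further values. Ccnd1, which encodes cyclin D1, stood at 48.7 to 119 against 75.9, 135 and 153 FPKM (0.72 ± 0.26), Il33, an alarmin cytokine, at 22.5 to 75.9 against 45.7, 7.02 and 18.9 FPKM (-1.13 ± 0.44), and Npr1, a natriuretic peptide receptor, at 16.9 to 39 against 24.8, 17.3 and 7.46 FPKM (-0.90 ± 0.38). None of these genes was called.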
